A study of Mus musculus with 24 samples.

Results

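The genes described here are the subunits of the vacuolar proton pump, the cathepsins and the membrane proteins Lamp1 and Lamp2, which together acidify lysosomes, digest protein in them and line them. They were chosen by name among protein-coding genes: symbols that begin with Atp6v0 or Atp6v1, symbols made of Cts and a single letter, and Atp6ap1, Atp6ap2, Lamp1 and Lamp2. The rule found 45 of 55487 genes, and used no measured value. They comprise 24 pump and accessory subunits, 18 cathepsins, the pair of Lamp genes, and Atp6v1fnb, a neighbour of Atp6v1f that carries the pump's name only. Of the 45, 33 were tested in all 4 comparisons of genotype described below and 8 in none, because their counts were too low.

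The libraries came from macrophages sorted from mouse tissue. In each of 4 cell types, 3 libraries of the genotype Z165KO (KO here) stand against 3 wild-type (WT) libraries. The types are microglia (brain), Kupffer cells (liver), alveolar macrophages (lung) and splenic macrophages. No treatment, strain, age or description of the KO allele is given in the labels, and they do not say whether libraries of a group came from separate animals, so a p-value here speaks of library-to-library spread, which may be technical. The series title names Zeb2, a repressor of the zinc-finger E-box family. Total counts ran from 50449347 to 65981787 per library.

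Markers of each labelled cell type were highest in its own libraries. The summed level of 7 alveolar macrophage genes was 25608 to 31406 CPM (counts scaled to the library total) in alveolar KO and 20627 to 26151 CPM in alveolar WT libraries, against at most 1502 CPM in the other types. Kupffer and microglial genes, 7 each, reached at most 1660.2 and 1214 CPM outside their own type, with at least 14971 and 26443 CPM within it. The 6 red pulp genes summed to 23286 to 24190.0 CPM in splenic KO and 21451 to 25313 CPM in splenic WT libraries, and to as much as 12632 CPM in another type, Kupffer cells. Zeb2 itself was at 126 to 142 CPM in alveolar KO and 190.4 to 297 CPM in alveolar WT libraries, and KO and WT overlapped in the other 3 types. The labels do not say which gene or element the KO allele alters, so Zeb2 counts are no check of it.

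The vacuolar ATPase is a rotary pump. Its cytosolic V1 domain hydrolyses ATP and turns a rotor in the membrane-bound V0 domain, which moves protons into lysosomes and endosomes. Several subunits exist in alternative forms, each made by its own gene, and osteoclasts, bone-resorbing relatives of macrophages, use particular forms to acidify bone. Cathepsins are proteases, most of which work in the acid so made. Most are papain-like cysteine proteases, Ctsd and Ctse are aspartic proteases, and Ctsa and Ctsg are serine enzymes. In macrophages they degrade engulfed cells and prepare peptides for MHC class II.

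Many lysosomal genes carry a short element, named CLEAR, to which the MiT/TFE factors bind; its core is TCACGTGA, its own reverse complement. Promoter sequences (RefSeq, build GRCm38.p6, from 250 bases before to 50 after the gene's start) were found for 35 of the 45 genes, and 5 of these (14.3%) held the core, against 304 of 27025 promoters overall (1.12%). The stretch around it is printed for those 5, which include genes from the V0 domain, the V1 domain and the cathepsins, so that the shared letters can be seen. All are read 5′ to 3′ on the gene's own strand, and capitals mark the core.
Atp6v0d1, chr8:105566045-105566104, minus strand: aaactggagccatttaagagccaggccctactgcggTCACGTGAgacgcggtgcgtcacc
Atp6v0e, chr17:26676356-26676415, plus strand: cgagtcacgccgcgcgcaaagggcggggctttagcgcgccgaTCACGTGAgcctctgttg
Atp6v1a, chr16:44139358-44139417, minus strand: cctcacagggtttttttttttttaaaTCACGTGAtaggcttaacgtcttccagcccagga
Ctsa, chr2:164833733-164833792, plus strand: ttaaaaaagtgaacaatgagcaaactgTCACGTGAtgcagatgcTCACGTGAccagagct
Ctsd, chr7:142387893-142387952, minus strand: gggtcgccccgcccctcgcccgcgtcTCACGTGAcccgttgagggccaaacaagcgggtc

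The Ctsa stretch holds the core at both capitalised places. Its inner letters, CACGTG, occurred in 9 of the 35 promoters (25.7%), against 8.09% of all promoters; this count includes the 5 with the core. The related E-box CATGTG, searched as CATGTG and CACATG, occurred in 5 (14.3%), against 15.9%. CACCTG, the E-box that ZEB factors bind, searched as CACCTG and CAGGTG, occurred in 11 (31.4%), against 22.6% of all promoters. These are matches of letters in a fixed window, not sites shown to be bound.

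Transcripts of the 24 pump and accessory genes made up 0.681 ± 0.0288% of all counts in alveolar KO and 0.643 ± 0.00369% in alveolar WT libraries (mean ± SD, n = 3). In the other 6 groups the same genes averaged between 0.283% and 0.344%. Part of this difference was Atp6v0d2 alone. It averaged 1502 CPM in alveolar KO and 1617 CPM in alveolar WT libraries, and at most 0.934 CPM in any other group. The 18 cathepsins took a larger share, which averaged between 1.67% in alveolar WT and 2.43% in splenic WT libraries. On the length-scaled transcript measure TPM, which allows levels of different genes to be compared, Ctsd, Ctss or Ctsb was the most abundant of the 45 genes in every group. At the other end, 12 genes stayed under 5 CPM in every library. Among these were the placental cathepsins Ctsj, Ctsm, Ctsq and Ctsr, the subunit forms Atp6v0a4, Atp6v1b1 and Atp6v1g3, which other organs use, and the neutrophil granule protease Ctsg.

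**Figure D1:**
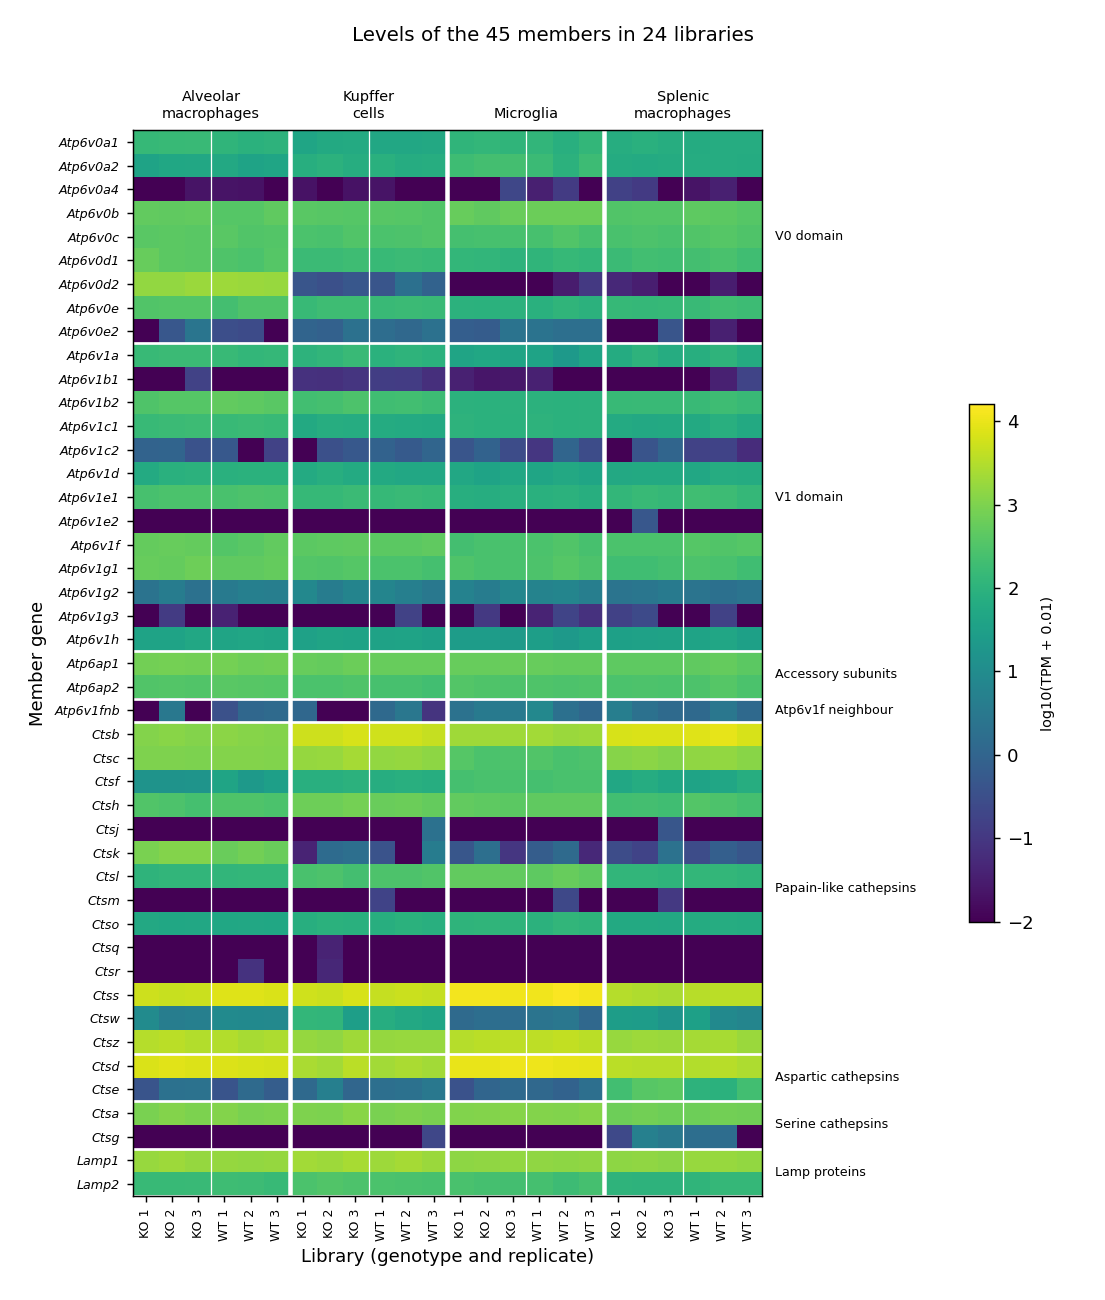
Level of each of the 45 genes (rows, by family) in each of the 24 libraries (columns; KO left of WT in each cell type), as log10(TPM + 0.01). Most pump rows differ little between cell types on this scale, Atp6v0d2 and Ctsk stand out in alveolar macrophages, Ctse in splenic macrophages, and the dark rows are genes with almost no counts.

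Most of the genes differed between the WT cell types. In a fit of the 12 WT libraries, edgeR's quasi-likelihood test called 30 of 36 tested members at a Benjamini-Hochberg adjusted p under 0.05, that is 83.3%, against 52.3% of all tested genes. The 6 not called were Atp6v0c, Atp6v1f, Lamp1 and the low genes Atp6v1c2, Atp6v1g2 and Atp6v1fnb. Each cell type was then set against the mean log level of the other 3, so a gene that is high in a single type gives a low contrast in the rest. Alveolar macrophages had 17 members higher and 7 lower (of all tested genes 17.3% were higher and 14.7% lower), with a median log2 fold change of 0.26 over members and -0.0034 over all genes. In microglia 13 were higher and 14 lower (of all genes 21.7% and 20.3%; medians 0.08 and 0.02). Kupffer cells had 7 higher and 11 lower (of all genes 15.2% and 7.58%; medians -0.17 and 0.06). Splenic macrophages had 4 higher and 13 lower (of all genes 14.5% and 9.69%; medians -0.17 and 0.01); without splenic WT replicate 1 the splenic calls numbered 10, against 17 with it.

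**Figure D2:**
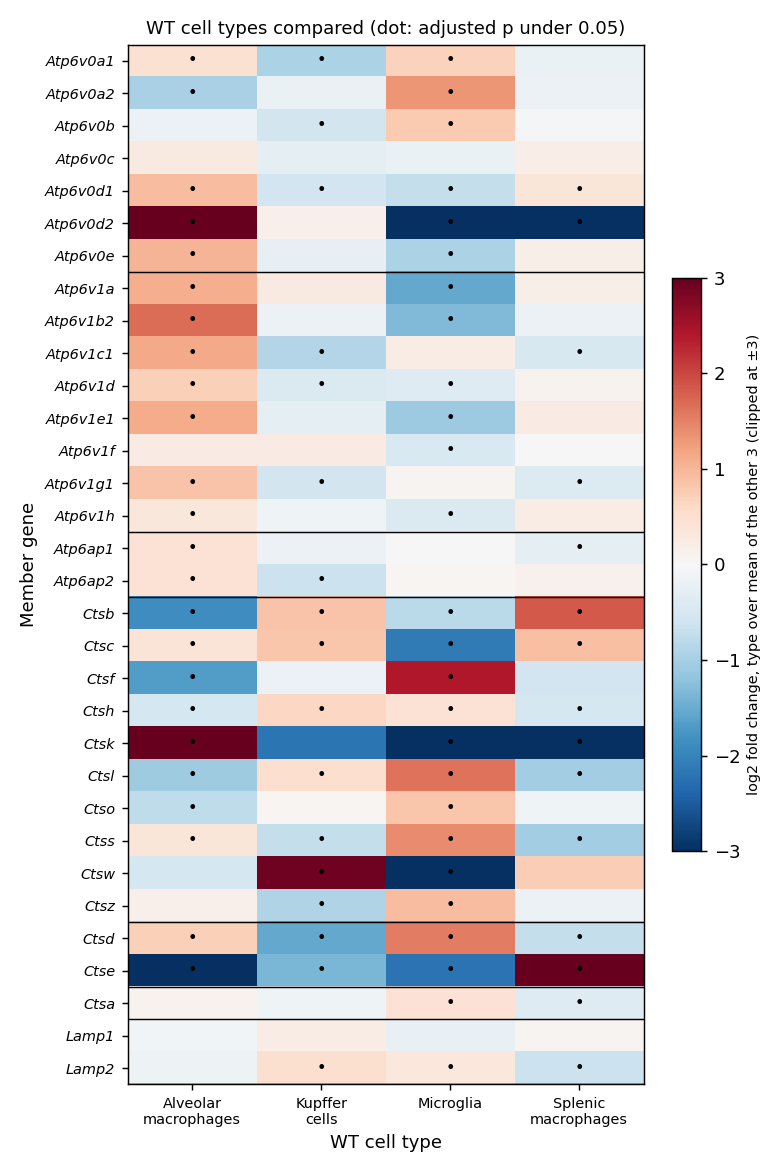
Log2 fold change of each WT cell type over the mean of the other 3 (columns) for 32 of the 45 genes (rows), clipped at 3 in either direction; a dot marks an edgeR adjusted p under 0.05. The V1 rows are red in alveolar macrophages and mostly blue in microglia, and the cathepsin rows change colour from gene to gene.

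The V0 gene that set a cell type apart was Atp6v0d2 (chr4:19876841-19922605, mm10), a form of the d subunit, the stalk that couples V1 to the membrane ring; it is known from osteoclasts and from macrophage fusion. It had 1634, 1627 and 1590.0 CPM in WT alveolar libraries and 0, 0.0191 and 1.64 CPM (lowest, median, highest) in the other 9. All alveolar values were far above the rest, and the WT mean was 1731 times that of Kupffer cells, the next highest type (edgeR adjusted p = 5.22e-09). In TPM, Atp6v0d2 supplied 73.5, 78.4 and 81.9% of the d subunit transcripts in alveolar KO libraries and 86.4, 86.9 and 83.2% in alveolar WT libraries, and at most 1.13% in any other library. Microglia and splenic macrophages were called lower than the mean of the others (edgeR adjusted p = 0.0342 and 0.000381), on so few counts that the fitted fold has no meaning as a size. The microglial call was lost without microglia WT replicate 1 (edgeR adjusted p = 0.051), replicate 2 (0.0655) or splenic WT replicate 2 (1).

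Atp6v0d1, the d form used in nearly all cells, was higher in alveolar macrophages too, at 169.9, 162 and 212 CPM in WT alveolar libraries and 63.3, 90.1 and 141 CPM (lowest, median, highest) in the other 9 (log2 fold change 0.93 ± 0.11 (SE), edgeR adjusted p = 7.56e-05). Only alveolar libraries held both d forms in quantity. The summed level of 7 osteoclast genes was 414 to 504 CPM in alveolar KO and 418 to 472 CPM in alveolar WT libraries (Atp6v0d2 and Ctsk are not in that list), and 463 to 539 CPM in Kupffer, 266 to 388 CPM in microglial and 608 to 809.9 CPM in splenic WT libraries, so it was not highest in the alveolar ones. Among them Calcr had 0 to 0.0165 CPM and Ocstamp 0 to 1.42 CPM in the alveolar libraries. Nearly all of the alveolar sum therefore came from the other genes of the list.

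The a subunit, which carries protons past the ring, has 4 forms. Tcirg1, the form that osteoclasts need and whose symbol lies outside the naming rule, gave 53.2% to 68.6% of a-subunit TPM as group means. Tcirg1 had 346, 346 and 394 CPM in alveolar, 436, 404 and 395 CPM in Kupffer, 564, 474 and 483 CPM in microglial and 439, 393 and 445 CPM in splenic WT libraries. Microglial values were above all others (log2 fold change 0.41 ± 0.09 (SE), edgeR adjusted p = 0.00477), and the alveolar contrast was negative (log2 fold change -0.31 ± 0.10 (SE), edgeR adjusted p = 0.0334). Atp6v0a2, a form of the Golgi and endosomes, was highest in microglia. It had 346, 223 and 375 CPM in WT microglial libraries and 87.3, 141 and 177 CPM (lowest, median, highest) in the other 9, with no overlap (log2 fold change 1.33 ± 0.14 (SE), edgeR adjusted p = 2.51e-05). It took 29.9 ± 3.04% of a-subunit TPM in microglial KO and 24.1 ± 3.92% in microglial WT libraries (mean ± SD, n = 3). Atp6v0a1, a form enriched in neurons, was lowest in Kupffer cells, at 107, 107 and 119 CPM in WT Kupffer libraries and 134, 189.6 and 256 CPM (lowest, median, highest) in the other 9 (log2 fold change -0.94 ± 0.12 (SE), edgeR adjusted p = 0.000198). Among the ring subunits, Atp6v0b was higher in microglia (log2 fold change 0.79 ± 0.10 (SE), edgeR adjusted p = 7.38e-05), and Atp6v0c, the main ring subunit, differed between types by less than the test could call (edgeR adjusted p = 0.081). Reads of Atp6v0c may be shared with its processed copy Atp6v0c-ps2, which averaged 32.6 CPM.

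The V1 domain was high in alveolar macrophages and low in microglia. Of 10 tested V1 genes, 7 were higher and 0 lower in alveolar macrophages (median log2 fold change 0.78). Of all tested genes 17.3% were higher and 14.7% lower there. In microglia 0 V1 genes were higher and 6 lower (median -0.41), against 21.7% and 20.3% of all genes. Kupffer cells and splenic macrophages had 3 V1 genes lower each (of all genes 7.58% and 9.69%) and none higher (15.2% and 14.5%). Atp6v1b2, a form of the B subunit that shapes the ATP-hydrolysing head, led the group with 849, 811 and 707 CPM in WT alveolar libraries and 156, 279 and 356 CPM (lowest, median, highest) in the other 9 (log2 fold change 1.67 ± 0.09 (SE), edgeR adjusted p = 1.52e-07). The alveolar values lay above all others. Atp6v1a, the catalytic A subunit, had 279, 251 and 269 CPM in WT alveolar libraries and 48.5, 143 and 213 CPM (lowest, median, highest) in the other 9 (log2 fold change 1.08 ± 0.17 (SE), edgeR adjusted p = 0.00044). In microglia Atp6v1a was at 72.5, 48.5 and 76.2 CPM, below every other WT library (log2 fold change -1.53 ± 0.19 (SE), edgeR adjusted p = 9e-05). Both accessory genes, Atp6ap1 and Atp6ap2, which help assemble the pump, were higher in alveolar macrophages as well (log2 fold changes 0.44 and 0.44; edgeR adjusted p = 0.00145 and 0.00642).

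Cathepsins split the cell types by gene. Ctsk (chr3:95499256-95509362), the collagen-degrading protease of osteoclasts, had 276, 372 and 299 CPM in WT alveolar libraries and 0, 0.213 and 1.98 CPM (lowest, median, highest) in the other 9. The alveolar WT mean was 439 times the Kupffer mean, and no other library came near it (edgeR adjusted p = 2.74e-06). The microglial and splenic contrasts were negative on a few counts (edgeR adjusted p = 0.0216 and 0.0164) and did not survive leaving out single libraries: adjusted p = 0.0677 and 0.0703 without microglia WT replicate 1 or 3, and 0.0723 and 0.064 without splenic WT replicate 1 or 3. Its neighbour Ctss (chr3:95526786-95556403), which starts 17423 bases after Ctsk ends, followed another order. Ctss cleaves the invariant chain of MHC class II, and had 4705, 6840.4 and 5053 CPM in WT microglial libraries and 1464, 2029 and 3445 CPM (lowest, median, highest) in the other 9 (log2 fold change 1.41 ± 0.11 (SE), edgeR adjusted p = 1.81e-06). Splenic macrophages had the least Ctss, at 1487, 1464 and 1557 CPM (log2 fold change -1.04 ± 0.12 (SE), edgeR adjusted p = 9.36e-05).

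Ctsb (chr14:63122462-63145923), a protease with both endopeptidase and carboxypeptidase action, was highest where Ctss was lowest. It had 14603, 17337 and 12756 CPM in WT splenic libraries and 2213, 3874 and 11196 CPM (lowest, median, highest) in the other 9 (log2 fold change 1.83 ± 0.10 (SE), edgeR adjusted p = 4.22e-07). Kupffer cells came next, at 10642, 11196 and 9179 CPM, and alveolar macrophages last, at 2426, 2301 and 2213 CPM, without overlap between neighbours in the order. Ctsc, which activates granule serine proteases, was also high in Kupffer cells, at 2790.2, 3141 and 2591 CPM (log2 fold change 0.83 ± 0.10 (SE), edgeR adjusted p = 0.000105), and in splenic macrophages, at 2632, 2699.8 and 2329 CPM (log2 fold change 0.91 ± 0.10 (SE), edgeR adjusted p = 5.2e-05). Its lowest type was microglia, with 581, 526 and 517 CPM in WT microglial libraries and 1966, 2591 and 3141 CPM (lowest, median, highest) in the other 9 (log2 fold change -2.12 ± 0.12 (SE), edgeR adjusted p = 1.8e-07). The Kupffer and splenic contrasts of Ctsc include that low level. Alveolar WT libraries came between, at 1966, 2178 and 2034 CPM, and the splenic mean was 1.24 times the alveolar mean. Ctsl, an endopeptidase, had 885, 1287 and 894 CPM in WT microglial libraries and 239, 266 and 712 CPM (lowest, median, highest) in the other 9 (log2 fold change 1.62 ± 0.11 (SE), edgeR adjusted p = 8.1e-07). Ctsf, which can also process invariant chain, had 367, 457 and 407 CPM in WT microglial libraries and 37.9, 72.3 and 133 CPM (lowest, median, highest) in the other 9 (log2 fold change 2.41 ± 0.19 (SE), edgeR adjusted p = 2.01e-06). Its lowest WT mean was alveolar, where values overlapped the splenic ones. All 10 tested papain-like cathepsins were called in microglia, 6 higher and 4 lower (of all tested genes 21.7% were higher and 20.3% lower). The carboxypeptidase Ctsz was among the higher ones, at 1697, 2124 and 1597 CPM (log2 fold change 0.92 ± 0.10 (SE), edgeR adjusted p = 1.99e-05).

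**Figure D3:**
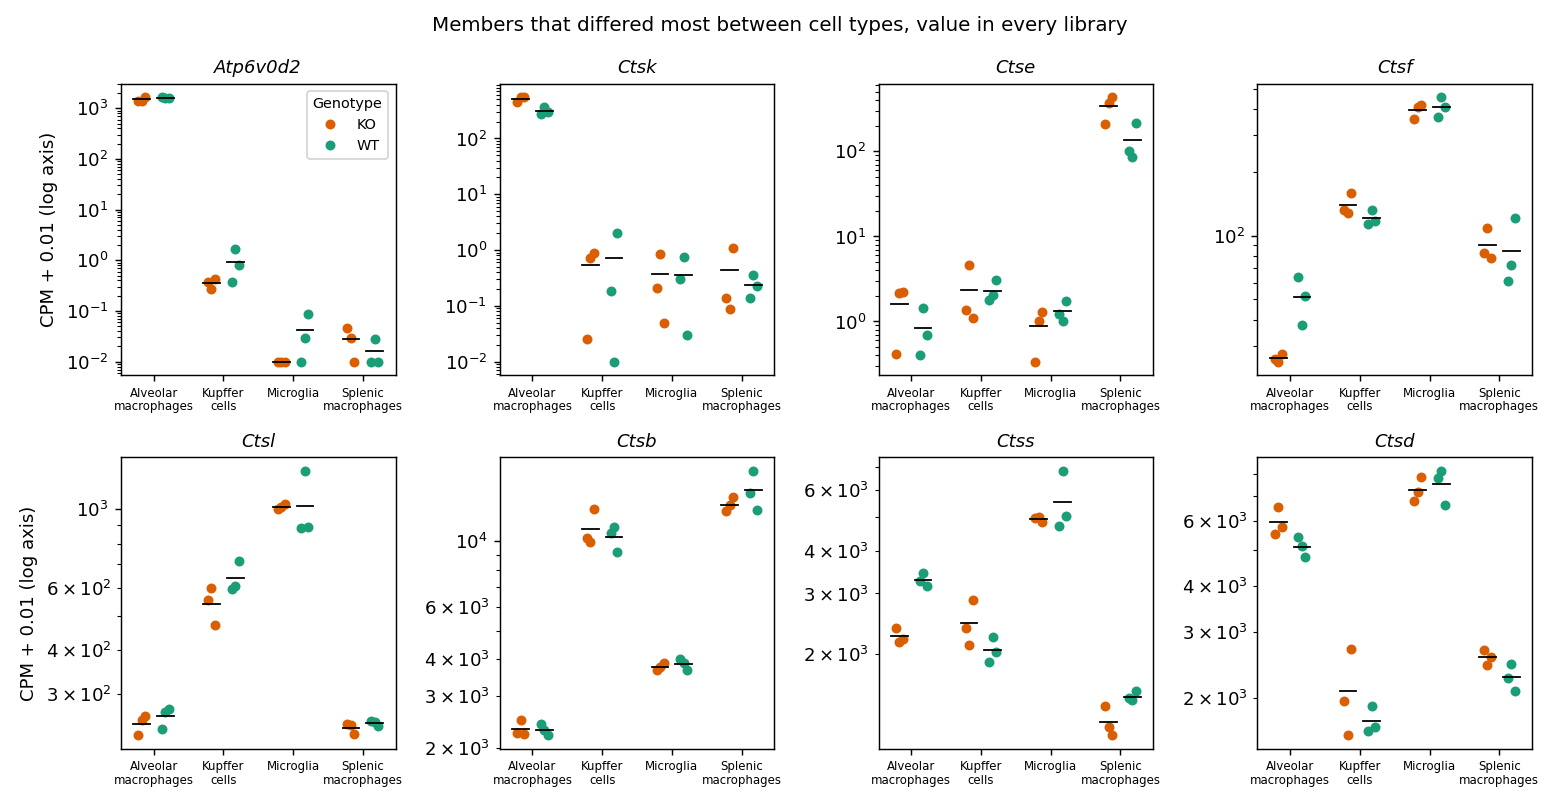
CPM + 0.01 on a log axis for 8 members in every library; orange points are KO, green points WT, and bars are group means (n = 3). Atp6v0d2 and Ctsk are high in alveolar macrophages only, Ctse in splenic macrophages, and Ctsf, Ctsl, Ctss and Ctsd are highest in microglia.

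Ctsw is a cathepsin of T and NK cells. It had 43.2, 32.6 and 27.2 CPM in WT Kupffer libraries and 0.710, 4.99 and 20.2 CPM (lowest, median, highest) in the other 9 (log2 fold change 2.92 ± 0.39 (SE), edgeR adjusted p = 0.000268). Kupffer values stood above all others. Its group moved with lymphocyte markers: 11 T and NK cell genes summed to 203 to 319 CPM in Kupffer, 20.7 to 25.5 CPM in alveolar, 0.280 to 1.57 CPM in microglial and 40.0 to 102 CPM in splenic WT libraries. Their part in the Ctsw level was not tested. In bulk libraries such as these, more cells of a type and more RNA per cell cannot be told apart.

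The aspartic protease Ctsd, a main lysosomal endopeptidase, had 7799, 8185 and 6623 CPM in WT microglial libraries and 1623, 2265 and 5409 CPM (lowest, median, highest) in the other 9 (log2 fold change 1.53 ± 0.10 (SE), edgeR adjusted p = 4.61e-07). Kupffer cells had the least, 1623, 1904 and 1671 CPM (log2 fold change -1.52 ± 0.11 (SE), edgeR adjusted p = 4.19e-06). Ctse (chr1:131638306-131675505), an aspartic protease of endosomes that is also found in red cells, had 101, 86.7 and 218 CPM in WT splenic libraries and 0.393, 1.42 and 3.06 CPM (lowest, median, highest) in the other 9 (log2 fold change 6.74 ± 0.37 (SE), edgeR adjusted p = 3.58e-07), and the splenic mean was 58.7 times the Kupffer mean. Red-cell genes moved with it: 7 erythroid genes summed to 5230.4 to 20599 CPM in splenic WT libraries, against 1.86 to 11.2 CPM in alveolar, 4.11 to 178 CPM in Kupffer and 13.7 to 195 CPM in microglial WT libraries. Their part in the Ctse level was not tested. The other types were called lower for Ctse, since their contrast includes the splenic level; alveolar WT libraries had 0.393, 1.42 and 0.683 CPM. The Kupffer call (edgeR adjusted p = 0.0364) was lost in 5 fits without 1 library, namely Kupffer WT replicate 1 (0.143), 2 (0.128) or 3 (0.0565), and microglia WT replicate 1 (0.0514) or 3 (0.0595).

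The leading cathepsins by TPM were shared by pairs of cell types. Ctsd, Ctss and Ctsz held 77.6% of cathepsin TPM in alveolar KO and 79.3% in alveolar WT libraries, and 84.1% in microglial KO and 84.8% in microglial WT libraries. In Kupffer cells Ctsb, Ctss and Ctsd held 70.4% in KO and 70.0% in WT, and the same 3 held 74.6% in splenic KO and 74.2% in splenic WT libraries. Lamp1 and Lamp2 are heavily glycosylated proteins that coat the inside of the lysosomal membrane. The WT mean of the highest type was 1.41 times the lowest for Lamp1 and 2.07 times for Lamp2. Lamp1 was not called in any contrast. Its Kupffer WT values nevertheless lay above those of every other WT library, and its microglial WT values below. Lamp2 was higher in Kupffer cells (log2 fold change 0.48 ± 0.11 (SE), edgeR adjusted p = 0.00764) and microglia (log2 fold change 0.31 ± 0.11 (SE), edgeR adjusted p = 0.0386). In splenic macrophages Lamp2 was lower (log2 fold change -0.64 ± 0.12 (SE), edgeR adjusted p = 0.00192). Where the counting kept no strand, reads of overlapping genes on the other strand may enter these values. Ctsa shares 311 bases of exon with Pltp (mean 320 CPM), and Ctsb 774 bases with Fdft1 (mean 17.8 CPM).

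**Figure D4:**
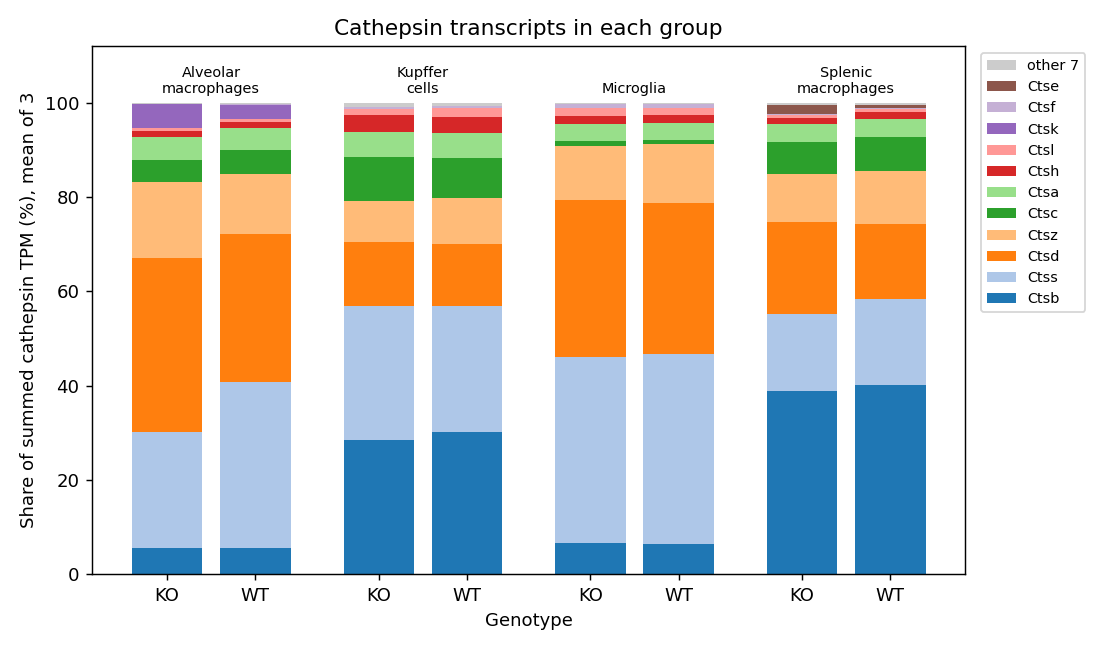
Share of summed cathepsin TPM (%) taken by each cathepsin, as the mean of 3 libraries, KO left of WT in each cell type; the 7 least abundant are pooled. Ctsb is the widest band in splenic macrophages, Ctsd and Ctss in alveolar macrophages and microglia, and the alveolar Ctss band is narrower in KO than in WT.

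No pump subunit, cathepsin or Lamp gene passed the edgeR test between genotypes in any cell type, with 3 libraries against 3. It called 0 of 36 tested members in alveolar macrophages (background 0.317% of genes), 0 of 36 in Kupffer cells (0.0629%), 0 of 35 in microglia (0%) and 0 of 34 in splenic macrophages (0.747%). At an unadjusted p under 0.05 the counts were 14 members in alveolar macrophages (12.5% of all genes), 2 in Kupffer cells (6.94%), 0 in microglia (4.44%) and 6 in splenic macrophages (11.7%). DESeq2 called 7 members in alveolar macrophages (5.08% of all genes), 0 in Kupffer cells (2.2%), 0 in microglia (0.519%) and 1 in splenic macrophages (4.83%). The 95% interval of the fold change lay within 1.5-fold either way for 22 alveolar, 19 Kupffer, 22 microglial and 24 splenic members. Members named for genotype and not already named for cell type were chosen after their values were seen. An exact permutation test of 3 against 3 libraries cannot go below p = 0.1, so single values were not tested that way.

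**Figure D5:**
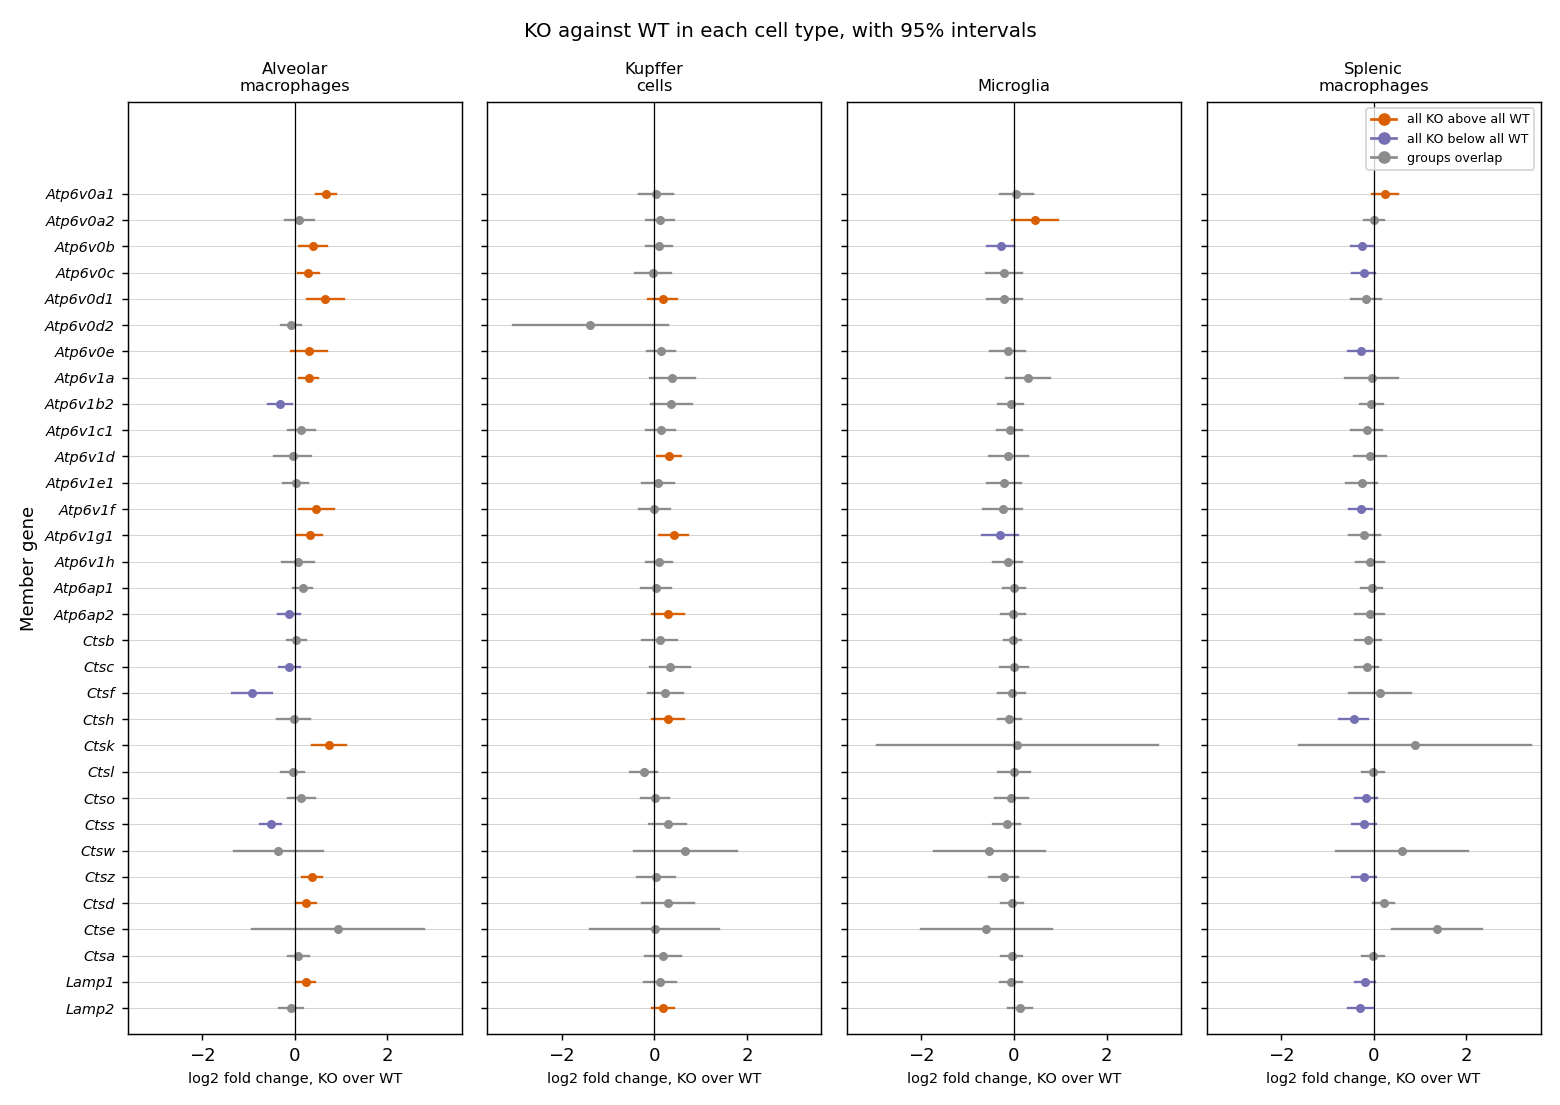
Log2 fold change of KO over WT with its 95% interval from edgeR for up to 32 members in each cell type; orange marks members with all 3 KO libraries above all 3 WT libraries, purple those with all below, grey those that overlap. Intervals wider than 8 log2 units are left out. Orange points outnumber purple in alveolar macrophages and Kupffer cells, and purple points outnumber orange in splenic macrophages.

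In alveolar macrophages 12 members had all KO libraries above all WT libraries (7.61% of all genes) and 5 had them below (11.8%). The median log2 fold change was 0.13 over members and -0.01 over all genes, and 0.35 over the tested V0 genes and 0.11 over the V1 genes. Atp6v0a1 had 314, 320.2 and 351 CPM in KO libraries, against 227, 189.6 and 213 CPM in WT libraries. The groups did not overlap, and the gene came closest to the threshold (log2 fold change 0.67 ± 0.09 (SE), 95% interval 0.45 to 0.90, edgeR adjusted p = 0.0503; 2.96e-08 to 0.309 over 11 alternative fits). DESeq2, a fit of all 24 libraries (which called 1.24% of all genes) and a fit without the filter on low counts (0.505%) called it. Atp6v0d1 had 334, 258 and 244 CPM in KO libraries, against 169.9, 162 and 212 CPM in WT libraries (log2 fold change 0.66 ± 0.17 (SE), 95% interval 0.26 to 1.05, edgeR adjusted p = 0.172; 0.0163 to 0.459 over 11 alternative fits). Atp6v0d2, the alveolar form, overlapped between genotypes, with 1402, 1423 and 1679.8 CPM in KO and 1634, 1627 and 1590.0 CPM in WT libraries (log2 fold change -0.08 ± 0.09 (SE), 95% interval -0.29 to 0.13, edgeR adjusted p = 0.801). The share of Atp6v0a1 in a-subunit TPM was 32.7 ± 0.0759% in alveolar KO and 25.5 ± 1.55% in alveolar WT libraries, while Tcirg1 itself had 391, 389.8 and 428 CPM in KO and 346, 346 and 394 CPM in WT libraries, which overlap.

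Some ring and V1 subunits also separated by genotype, none past the threshold. Atp6v0b had 355, 337 and 339 CPM in KO libraries, against 237, 242 and 319 CPM in WT libraries (log2 fold change 0.40 ± 0.13 (SE), edgeR adjusted p = 0.273). Atp6v0c had 469, 484 and 461 CPM in KO libraries, against 430.1, 365 and 383 CPM in WT libraries (log2 fold change 0.29 ± 0.10 (SE), edgeR adjusted p = 0.274). In both, each KO library exceeded each WT library. The V1 genes Atp6v1a, Atp6v1f and Atp6v1g1 also had all KO values above all WT values, with log2 fold changes of 0.31, 0.47 and 0.32 (edgeR adjusted p = 0.216, 0.305 and 0.304). Atp6v1b2 lay the other way, at 563, 649.6 and 648 CPM in KO and 849, 811 and 707 CPM in WT libraries (log2 fold change -0.32 ± 0.11 (SE), edgeR adjusted p = 0.297). The other 6 of the 10 tested V1 genes overlapped.

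The alveolar cathepsins lay in both directions. Ctss had 2387, 2160.3 and 2214 CPM in KO libraries, against 3271, 3445 and 3156 CPM in WT libraries, without overlap (log2 fold change -0.52 ± 0.09 (SE), 95% interval -0.74 to -0.30, edgeR adjusted p = 0.0983; 0.00227 to 0.347 over 11 alternative fits). Ctsk had 454, 545 and 557 CPM in KO libraries, against 276, 372 and 299 CPM in WT libraries (log2 fold change 0.74 ± 0.16 (SE), 95% interval 0.37 to 1.10, edgeR adjusted p = 0.117; 0.000855 to 0.809 over 11 alternative fits). These neighbours on chromosome 3 lay in opposite directions, neither past the edgeR threshold. Ctsf had 26.1, 25.3 and 27.5 CPM in KO libraries, against 63.5, 37.9 and 52.0 CPM in WT libraries (log2 fold change -0.92 ± 0.18 (SE), 95% interval -1.36 to -0.49, edgeR adjusted p = 0.11; 0.00062 to 0.352 over 11 alternative fits). All KO values of Ctsf were below all WT values, in the type with its lowest WT mean. Ctsz had 1537, 1717 and 1498 CPM in KO libraries, against 1337, 1137 and 1292 CPM in WT libraries (log2 fold change 0.37 ± 0.09 (SE), edgeR adjusted p = 0.169). Ctsd had 5507, 6529 and 5780.0 CPM in KO libraries, against 5409, 5115 and 4789 CPM in WT libraries (log2 fold change 0.25 ± 0.09 (SE), edgeR adjusted p = 0.321). In cathepsin TPM, Ctss held 24.4 ± 2.15% in KO and 35.2 ± 1.17% in WT libraries, and Ctsd 37.0 ± 1.72% in KO and 31.5 ± 1.02% in WT libraries (mean ± SD, n = 3). Ctsb, with 2263, 2488 and 2231 CPM in KO and 2426, 2301 and 2213 CPM in WT libraries, had an interval of -0.17 to 0.24 on the log2 scale. Lamp1 (log2 fold change 0.24 ± 0.09 (SE), edgeR adjusted p = 0.323) had all KO values above all WT values, and Lamp2 overlapped.

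Summed lists named for other cells differed with genotype in the same alveolar libraries. The sums do not show which listed genes, or which cells, carried the difference. Some listed genes are not particular to the named cell, and Mmp9 is in both the neutrophil and the osteoclast list. The summed level of 10 neutrophil genes was 462 to 609.5 CPM in KO and 206 to 378 CPM in WT libraries. That of 8 B cell genes was 0.0328 to 1.58 CPM in KO, where Fcer2a and Pax5 were at 0, and 27.2 to 40.9 CPM in WT libraries. The 9 lung epithelial genes summed to 625 to 699.5 CPM in KO and 294 to 516 CPM in WT libraries, and the red pulp genes to 343 to 366 CPM in KO and 226 to 263 CPM in WT libraries. The part of these lists in the values above was not tested.

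In splenic macrophages 1 member had all KO libraries above all WT libraries (8.02% of all genes) and 10 had them below (11.9%). The median log2 fold change was -0.09 over members and -0.0029 over all genes. Ctse had 210.3, 374 and 438 CPM in KO libraries, against 101, 86.7 and 218 CPM in WT libraries. KO and WT overlapped by a single library of each (log2 fold change 1.37 ± 0.41 (SE), 95% interval 0.40 to 2.33, edgeR adjusted p = 0.26; 0.0111 to 0.499 over 11 alternative fits), and Ctse was the member called by DESeq2 here. The 7 erythroid genes summed to 14455 to 24368 CPM in KO and 5230.4 to 20599 CPM in WT libraries, and the 10 neutrophil genes to 627 to 859 CPM in KO and 178 to 249.9 CPM in WT libraries. The 8 B cell genes summed to 26.8 to 37.1 CPM in KO, where Pax5 was at 0, and 601 to 987 CPM in WT libraries. Here too the sums do not show which genes or cells carried them, and the part of these lists in the splenic values was not tested. Ctsh had 298, 309.6 and 283 CPM in KO libraries, against 481, 409 and 348 CPM in WT libraries (log2 fold change -0.43 ± 0.13 (SE), edgeR adjusted p = 0.272); Ctsh is an aminopeptidase. Lamp2 had 319.9, 302 and 309 CPM in KO libraries, against 346, 400.3 and 417 CPM in WT libraries (log2 fold change -0.28 ± 0.12 (SE), edgeR adjusted p = 0.417). Both had all KO values below all WT values. The subunits Atp6v0b, Atp6v0e and Atp6v1f did so too, with log2 fold changes of -0.25, -0.28 and -0.28 (edgeR adjusted p = 0.404, 0.412 and 0.364). Ctsg, a neutrophil protease, was at 0.0724, 1.65 and 1.04 CPM in KO and 0.574, 0.511 and 0 CPM in WT libraries, with overlap (log2 fold change 1.40 ± 1.45 (SE), edgeR adjusted p = 0.77).

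In Kupffer cells 6 members had all KO libraries above all WT libraries (5.87% of all genes) and 1 had them below (7.04%). The median log2 fold change was 0.12 over members and -0.0029 over all genes. Atp6v1g1 had 126, 119.5 and 134 CPM in KO libraries, against 97.4, 102 and 88.9 CPM in WT libraries (log2 fold change 0.42 ± 0.13 (SE), edgeR adjusted p = 0.548). Atp6v1d had 89.0, 108 and 90.9 CPM in KO libraries, against 82.1, 75.1 and 76.8 CPM in WT libraries (log2 fold change 0.31 ± 0.11 (SE), edgeR adjusted p = 0.638); both are stalk subunits of V1. Their KO values lay just above the WT values. Ctsb and Ctss, the leading cathepsins, overlapped between genotypes (95% intervals -0.26 to 0.50 and -0.12 to 0.69). The B cell genes summed to 18.0 to 22.8 CPM in KO and 348 to 567 CPM in WT libraries, and their part was not tested.

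In microglia 1 member had all KO libraries above all WT libraries (5.58% of all genes) and 2 had them below (5.45%). The median log2 fold change was -0.09 over members and -0.01 over all genes, and the smallest edgeR adjusted p of any member was 0.987. Atp6v0a2 had 375, 461 and 458 CPM in KO libraries, against 346, 223 and 375 CPM in WT libraries (log2 fold change 0.45 ± 0.21 (SE), 95% interval -0.03 to 0.94, edgeR adjusted p = 0.987). Atp6v0b had 351, 308 and 382 CPM in KO libraries, against 405, 463 and 402 CPM in WT libraries (log2 fold change -0.28 ± 0.13 (SE), 95% interval -0.57 to 0.01, edgeR adjusted p = 0.987). Those values separate the genotypes in opposite directions. For Atp6v0a2 the groups nearly touched, with 374.99 CPM in the lowest KO and 374.80 CPM in the highest WT library. For Ctss, Ctsd, Ctsz, Ctsl and Ctsf, 5 cathepsins that were highest in microglia, KO and WT overlapped, and the 95% intervals reached from -0.54 to 0.34.

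Whether the genotype effect differed between cell types was tested in a fit of all 24 libraries. edgeR called 0 of 38 members (background 0.524%), with 12 at an unadjusted p under 0.05 (11.6% of all genes), and DESeq2 called 4 (background 4.61%). Atp6v0b had the smallest value (edgeR adjusted p = 0.0916). Its KO values were above WT in alveolar macrophages and below WT in microglia and splenic macrophages, and it was called without alveolar WT replicate 3. Atp6v0d1 and Atp6v1g1 followed (edgeR adjusted p = 0.15 and 0.131), and Ctsf was called without splenic WT replicate 3. Averaged over the 4 cell types, the effect was called for 0 of 38 members (background 0.624%), with 4 at an unadjusted p under 0.05 (9.79%) and 1, Atp6v0a1, by DESeq2 (2.95%). Atp6v0a1 had the smallest adjusted p there (log2 fold change 0.26 ± 0.07 (SE), edgeR adjusted p = 0.104; 0.013 to 0.211 over 28 alternative fits). Its KO libraries lay above its WT libraries in alveolar and splenic macrophages and overlapped in the other types.

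Other lists of lysosomal genes were counted in the same fits. Of 35 tested lysosomal hydrolases outside the cathepsins, the WT contrasts called 10 higher and 9 lower in alveolar macrophages, 6 higher and 11 lower in Kupffer cells, 10 higher and 8 lower in microglia, and 15 higher and 8 lower in splenic macrophages. Of 26 other lysosomal membrane proteins they called 12 higher and 6 lower in alveolar macrophages, 5 higher and 8 lower in Kupffer cells, 9 higher and 7 lower in microglia, and 5 higher and 4 lower in splenic macrophages. The background of the same contrasts, over every gene in the fit, was 17.3% higher and 14.7% lower in alveolar macrophages, 15.2% higher and 7.58% lower in Kupffer cells, 21.7% higher and 20.3% lower in microglia and 14.5% higher and 9.69% lower in splenic macrophages. Between genotypes, 0 of the tested hydrolases were called in any of the 4 cell types. Among the membrane proteins, Cd63, a tetraspanin, rose in alveolar KO macrophages (log2 fold change 2.25 ± 0.17 (SE), edgeR adjusted p = 0.00846), with 266, 349 and 419.9 CPM in KO and 68.0, 68.6 and 84.3 CPM in WT libraries. Among 21 genes that sort proteins to the lysosome, Gga2, an adaptor of the Golgi, fell in splenic KO macrophages (log2 fold change -0.84 ± 0.12 (SE), edgeR adjusted p = 0.0356), with 41.3, 41.2 and 52.0 CPM in KO and 81.4, 84.6 and 80.9 CPM in WT libraries. Averaged over the types, Ppt1, a lysosomal thioesterase, rose in KO (log2 fold change 0.36 ± 0.07 (SE), edgeR adjusted p = 0.0178).

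The 4 MiT/TFE factors were called 2 higher and 1 lower in alveolar macrophages, 1 higher and 2 lower in Kupffer cells, 1 higher and 1 lower in microglia, and 1 higher and 0 lower in splenic macrophages in the WT contrasts, and none between genotypes in any type. Tfec, the family's macrophage member, was at 0.485, 0.669 and 0.631 CPM in microglial WT libraries, below every other WT library. The 13 tested genes of pump assembly and disassembly were called 2 higher and 2 lower in alveolar macrophages, 1 higher and 2 lower in Kupffer cells, 3 higher and 2 lower in microglia, and 3 higher and 1 lower in splenic macrophages. The 7 tested cathepsin inhibitors were called 2 higher and 2 lower in alveolar macrophages, 3 higher and 1 lower in Kupffer cells, 2 higher and 5 lower in microglia, and 3 higher and 1 lower in splenic macrophages. Several of these counts lie near the shares of all genes given above, and nothing particular to the lists is read from them. No gene of either list was called between genotypes in any cell type.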

How the data were processed

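RNA came from macrophages sorted from digested tissue and was made into libraries with a SMARTer Ultra Low kit, per the labels' protocols. The authors deposited a table of counts per gene, with CPM (counts scaled to the library total) and TPM (scaled to transcript length) beside them. Tests used the deposited counts, which are unscaled whole numbers. The deposited CPM values differed from recomputed ones by at most 4.73e-11, and the deposited TPM values were used to compare genes. The submitters' processing notes name the build mm10 and the tools DRAGEN, STAR, Subread, featureCounts and Salmon; their roles, strand setting and handling of shared reads are not given in the sources used here. Of 55774 rows, 287 repeated a gene and were dropped; 0 value columns were unused. Coordinates are those of the GENCODE annotation of mm10.

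Samples were grouped by the cell type and genotype in their labels. KO and WT were compared within each cell type (6 libraries), the interaction and mean effect in all 24, and WT cell types in the 12 WT libraries, by edgeR 4.0.16's quasi-likelihood test, two-sided (limma 3.58.1, R 4.3.3), TMM scaling, filterByExpr with a minimum count of 10 and Benjamini-Hochberg adjustment over all tested genes. The calling threshold was an adjusted p of 0.05. Intervals are 95% and, without molecular identifiers, counting error is no guide to molecules. Libraries held 50449347 to 65981787 counts, and no replicates agreed within sampling noise (smallest chi-square per degree of freedom 32.7). Alternatives were DESeq2 1.42.0, its size factors, no filter, a replicate block, the fit of 24 and each library left out. The code was tested on simulated data. In simulated KO against WT comparisons edgeR recovered 22% to 45.5% of 2-fold changes and 70.3% to 82.9% of 4-fold changes. The changed genes were drawn at random from all genes above a minimum mean count, so these shares are not those of the members. A gene not called between genotypes may still have changed.

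The named genes were members called between genotypes, the 3 highest and 3 lowest called members of each WT cell type with at least 5 CPM in some WT group, and a fixed set of common cathepsins, V0 subunits and Lamp genes; exceptions are stated where they occur. Members, gene lists and motifs were chosen with earlier results of these data known.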

Additional observations from a re-analysis of the deposited data

How the results depend on the processing

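Between genotypes, the count of members called in alveolar macrophages was 0 by edgeR, 7 by DESeq2, 3 in the fit of all 24 libraries and 1 without the filter on low counts. DESeq2 also called 1 member in splenic macrophages, 4 for a genotype effect that differed between cell types and 1 for the mean effect. DESeq2 called more of all genes as well (1027 of 20228 in alveolar macrophages, against 55 of 17369 by edgeR; 479 against 12 in Kupffer cells, 105 against 0 in microglia and 988 against 133 in splenic macrophages). The cause was not tested. Leaving out single libraries gave 0 members in each of the 4 cell types and for the mean effect, and 0 to 1 for the interaction. Fewer libraries make a call harder, so these counts of 0 are no measure of stability.

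In the WT contrasts, leaving out single libraries gave 30 to 32 members that differed at all, 21 to 25 for alveolar macrophages, 15 to 18 for Kupffer cells, 22 to 27 for microglia and 10 to 18 for splenic macrophages. Of 762 alternative values for 50 named results, 736 kept their direction and side of the threshold, 13 lost a call, 13 gained one and 0 reversed. These 50 were picked from the same data: genotype results at an unadjusted p under 0.05, and the highest and lowest WT calls. No genotype result was called, so only WT results could lose a call. The count speaks for these results only and is no measure of stability in general. The lost calls were those of Atp6v0d2, Ctsk and Ctse, and the cause was not tested; Ctse in Kupffer cells was also lost in the fit of 24 (edgeR adjusted p = 0.0731).

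Same-numbered KO and WT libraries of a cell type did not deviate together (correlations -0.0400 to 0.0360). Across cell types, same-numbered libraries of a genotype correlated by -0.0200 to 0.0730. A fit with the replicate block called 0 members between genotypes in each cell type and for the mean effect and the interaction. The main fits had called 0 already and the block makes a call harder in fits this small, so these counts are no measure of stability. In the WT fit it called 30 that differed, 23 for alveolar macrophages, 18 for Kupffer cells, 26 for microglia and 15 for splenic macrophages.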
